A study of Mus musculus with 6 samples.

Results

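Respiratory chain subunits encoded in the nucleus were read from a table of 18448 genes measured in mouse jejunal organoids, self-organising cultures of small-intestinal epithelium. Members were every row whose symbol starts with Ndufa, Ndufb, Ndufc, Ndufs, Ndufv, Uqcr, Atp5 or Cox4 to Cox8, together with Sdha, Sdhb, Sdhc, Sdhd and Cyc1, with Ndufaf genes and pseudogene names left out. The rule used names and no measured value, and it found 80 genes. By the proteins' known places, 36 belong to complex I, 4 to complex II, 9 to complex III, 14 to complex IV and 15 to complex V, the ATP synthase. The other 2, Atp5s and Atp5sl, carry an ATP synthase name without being subunits, and Cox7a2l, counted here with complex IV, is a factor that joins complexes III and IV and not a subunit of either. Ndufa4 carries a complex I name but is known as part of complex IV and was placed there.

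The organoids were of the C57BL/6 strain and of 1 genotype throughout, Villin-CreERT2 with Hnf4a flox/flox. They fell into 2 groups of 3 libraries. The first group received 0.5 µM 4-hydroxytamoxifen (4OHT), which switches on the Cre recombinase, for 24 h before the organoids were split; the second received the vehicle DMSO. Both groups then grew with 200 ng/mL recombinant mouse Wnt3A and were collected 2 days past their last split, on day 2, so every library came from Wnt3A-supplemented cultures. The villin promoter drives the recombinase in epithelial cells, and no group used here had 4OHT on organoids without the floxed alleles, so loss of Hnf4a and exposure to 4OHT cannot be told apart. Whether replicates were separate cultures or came from separate animals is not stated in the labels. The p-values therefore set a group difference against the variation among these libraries, and that variation may be technical.

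Each mitochondrion makes most of its ATP by passing electrons from NADH, at complex I, and from succinate, at complex II, through ubiquinone to complex III, cytochrome c and complex IV, where oxygen is reduced. Complexes I, III and IV pump protons across the inner membrane, and complex V lets them back through a rotor that drives ATP synthesis. Most subunits are encoded in the nucleus and imported, while a few hydrophobic ones are encoded in mitochondrial DNA. Absorptive enterocytes are rich in mitochondria. HNF4A is a nuclear receptor that binds DNA near many enterocyte genes.

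The targeted gene was checked first. Hnf4a (chr2:163506808-163572910, plus strand, build GRCm38) had 436, 424 and 482 CPM in 4OHT organoids, against 839.8, 846 and 1021 CPM in DMSO organoids, in CPM, the counts scaled to a common library total with an adjustment for composition. It averaged 447 ± 30.6 CPM in 4OHT organoids and 902 ± 103 CPM in DMSO organoids (SD, n = 3 each) and fell by 50.4% (log2 fold change -1.01, SE 0.0997, adjusted p = 0.0124, edgeR's quasi-likelihood test over 14544 genes with Benjamini-Hochberg adjustment). The 2 groups did not overlap. The counts cover the whole gene, so reads from exons outside the floxed part are included. Library totals were 34912396, 35315255 and 40276242 counts for 4OHT replicates 1 to 3 and 35638347, 36102703 and 31537100 counts for DMSO replicates 1 to 3. All 8 defining epithelial markers were present in every library, with a summed level of 14008, 11409 and 13207 CPM in 4OHT organoids and 13558, 12126 and 10151 CPM in DMSO organoids. The fibroblast markers that had a row summed to between 4.44 and 7.60 CPM, almost all of it Vim, and the endothelial marker Pecam1 lay between 0.306 and 0.478 CPM.

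Subunit mRNAs were abundant. Together the 80 genes made up 1.28, 1.32 and 1.35% of all counts in the 4OHT libraries, against 1.39, 1.44 and 1.58% in the DMSO libraries. Levels were compared between genes per kb of the principal transcript in GENCODE M21, as the group mean of CPM per kb. By that measure the catalytic beta subunit of the ATP synthase, Atp5b, led with 961 CPM per kb in 4OHT organoids and 1037 in DMSO organoids. Cox8a, the ubiquitous isoform of complex IV subunit 8, followed with 599.8 CPM per kb in 4OHT organoids and 678 in DMSO organoids. Atp5g3, which encodes the rotor-ring subunit c, had 533 CPM per kb in 4OHT organoids and 610.2 in DMSO organoids, and Atp5a1, the alpha subunit that alternates with beta in the F1 head, had 546 CPM per kb in 4OHT organoids and 588 in DMSO organoids. Complex IV had the highest median level, 226 CPM per kb in 4OHT organoids and 261 in DMSO organoids, ahead of complex III with 194 and 219.6. Complex V had a median of 184 CPM per kb in 4OHT organoids and 207 in DMSO organoids, complex II 122 and 141, and complex I 73.0 and 83.1. The order of the 5 complexes was the same in both groups. Within complex I the range in DMSO organoids ran from 7.91 CPM per kb for Ndufb2, whose principal transcript has 4371 bases, to 239 for Ndufb9.

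**Figure D1:**
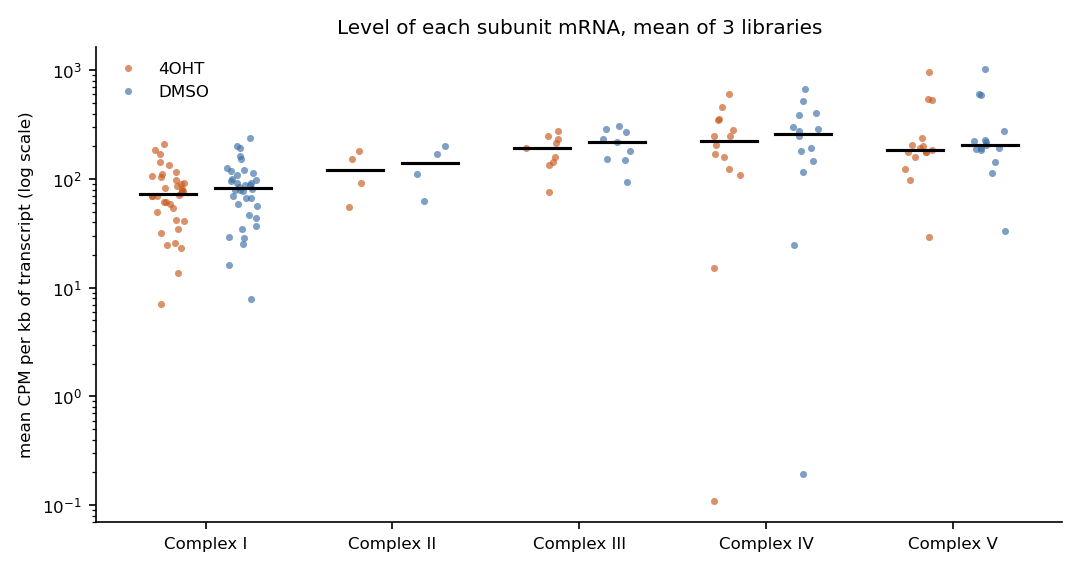
Mean level of each subunit mRNA over 3 libraries, in CPM per kb of transcript on a log axis, by complex, with 4OHT organoids in orange left of DMSO organoids in blue. Each point is 1 gene and each bar the median of the complex; complex IV reaches 226 in 4OHT and 261 in DMSO organoids, above complex I at 73.0 and 83.1, and the lone point at the bottom of complex IV is Cox6b2.

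The comparison of 4OHT with DMSO organoids asks how these transcripts differed after induced deletion of Hnf4a together with exposure to 4OHT. Every tested member had a lower fitted level in 4OHT organoids, by a small amount: the log2 fold change was below 0 for 79 of 79, where 50.8% of all tested genes were below 0, and 51.6% of the 9405 genes at 10 CPM or more in 3 libraries. The median member was at -0.16 on the log2 scale, with an interquartile range of -0.19 to -0.13; over all tested genes the median was 0.00 and the interquartile range -0.12 to 0.12. Summed over the list, the level was 12799, 13136 and 13695 CPM in 4OHT organoids, against 13792, 14128 and 16162 CPM in DMSO organoids, a difference of -10.1%. The groups did not overlap in that sum, and its log2 ratio of -0.15 became -0.08 without DMSO replicate 3.

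No single member passed the test. Of the 79 tested, 0 were called higher and 0 lower at an adjusted p under 0.05, where 0.701% of the 14544 tested genes were called higher and 0.206% lower, 0.908% in all. Adjusted p-values of members ran from 0.171 to 0.950 in edgeR. At an unadjusted p under 0.05, 18 members were lower and 0 higher in 4OHT organoids, against 6.35% of all tested genes that were lower. DESeq2 and limma-voom also called 0 members, where they called 1.83% and 0.193% of all tested genes lower. The 3 libraries of each group did not overlap for 31 members, all with the lower values in 4OHT organoids; over all tested genes 10.1% behaved so, and 12.5% the other way, and of the genes at 10 CPM or more 11.0% were separate with lower values in 4OHT organoids. The members were read in the same 6 libraries, so these counts are not 79 separate observations, and in bulk RNA fewer cells of a type and less RNA per cell cannot be told apart. The member not tested, Cox6b2, had too few counts.

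**Figure D2:**
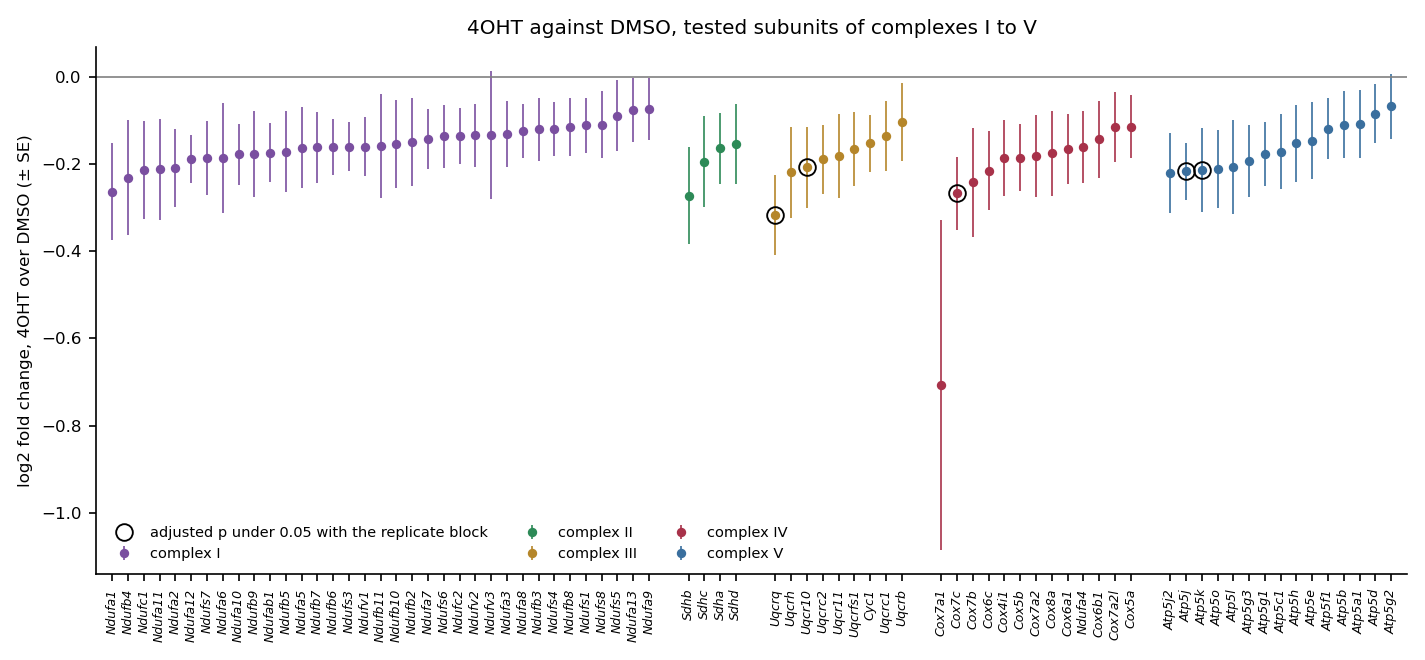
Log2 fold change of 4OHT over DMSO organoids with its SE (edgeR) for tested members of complexes I to V, ordered within each complex, on a linear axis; open circles mark the 5 genes with an adjusted p under 0.05 once replicate numbers were fitted as a block. All points drawn lie below 0, the middle 50% of tested members between -0.19 and -0.13, and Cox7a1 stands lowest at -0.71 with an SE of 0.378.

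The libraries did not lie in 2 tight groups. DMSO replicate 3 held the highest level of 78 of the 79 tested members, where it held the highest level of 28.2% of all tested genes, and 4OHT replicate 1 held the lowest level of 61 members, against 13.7% of all tested genes. Relative to the DMSO mean of each gene, the median member stood at -0.23, -0.15 and -0.10 on the log2 scale in 4OHT replicates 1 to 3 and at -0.09, -0.05 and 0.14 in DMSO replicates 1 to 3. Replicate 3 was the highest of its group in both treatments: the median member exceeded the mean of replicates 1 and 2 by 0.10 in 4OHT organoids, with 74 of 79 members higher, and by 0.21 in DMSO organoids, with 78 of 79 higher. Without DMSO replicate 3 the median log2 fold change of the members was -0.10, and 2 members, Atp5s and Ndufv3, were no longer below 0. The other 77 stayed below 0 without it.

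**Figure D3:**
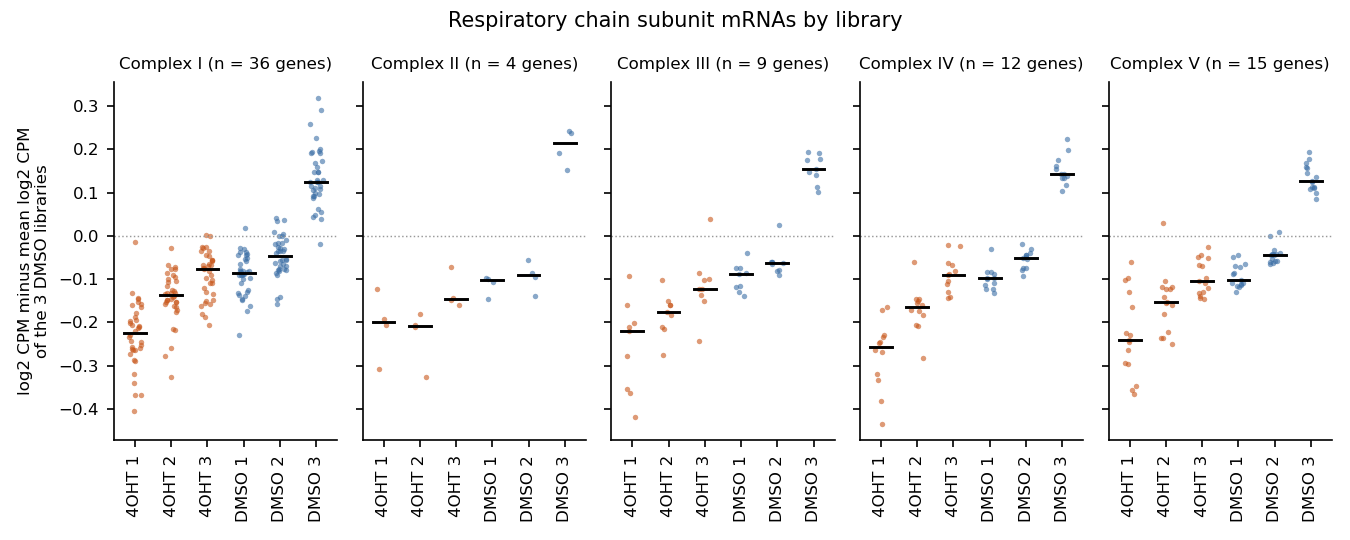
Level of each tested subunit mRNA in each library, as log2 CPM minus the gene's mean log2 CPM in the 3 DMSO libraries, by complex on a linear axis, with 4OHT libraries in orange and DMSO libraries in blue. Points are genes and bars medians; DMSO replicate 3 stands above every other library in each complex, 4OHT replicate 1 is lowest in complexes I, III, IV and V, and Cox7a1 lies outside the range and is not drawn.

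Over all tested genes, libraries with the same replicate number deviated together, so the numbers were also fitted as a block. That is, 4OHT replicate 1 was set against DMSO replicate 1 and so on. The level was lower in 4OHT organoids in all 3 pairs for 74 of 79 members, where 24.6% of all tested genes were. The median member differed by -0.13, -0.10 and -0.24 on the log2 scale in pairs 1, 2 and 3. With the block, 5 members were called lower and 0 higher, where 3.00% of all tested genes were called lower and 3.99% higher. At an unadjusted p under 0.05 with the block, 59 members were lower, against 12.0% of all tested genes. The 5 calls depended on the libraries used: without replicate 3 of both groups the blocked fit called 34 members lower, among them the same 5, where 8.16% of all tested genes were called lower, and without replicate 1 or replicate 2 of both groups it called 0. Each of these fits kept 2 pairs only, which leaves little from which to estimate a gene's own variation. Their counts of calls are therefore not firmer than the count with all pairs.

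The 5 members called with the block were small subunits of complexes III, IV and V. Uqcrq (ENSMUSG00000044894, chr11:53427922-53430831, minus strand), a small subunit of complex III next to cytochrome b, had 106, 117 and 120.1 CPM in 4OHT organoids, against 131, 136 and 161 CPM in DMSO organoids. All 4OHT libraries lay below all DMSO libraries, and the blocked fit called it lower (log2 fold change -0.31, SE 0.0524, adjusted p = 0.0303), while the fit without the block did not (adjusted p = 0.171). Cox7c (chr13:86044816-86046904, minus strand), subunit 7c of complex IV, had 102, 109.7 and 121 CPM in 4OHT organoids, against 126, 131 and 145 CPM in DMSO organoids. The groups again did not overlap, the pairs differed by -0.29, -0.25 and -0.26, and the blocked adjusted p was 0.0238 in edgeR, the smallest of any member, against 0.201 without the block. Cox7c has 3 near-identical copies in the annotation, and those in the table held 1.70% as many counts as Cox7c itself.

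Atp5j (chr16:84827866-84835625, minus strand), coupling factor 6 of the peripheral stalk that holds the F1 head still, had 124, 129.8 and 137 CPM in 4OHT organoids, against 147, 147 and 160.5 CPM in DMSO organoids. The groups did not overlap, and the blocked edgeR fit gave an adjusted p of 0.0398, against 0.185 without the block. Its exons overlap those of Gabpa on the opposite strand over 397 bases, and the strand setting of the counting is not given in the sources used here; Gabpa itself was at -0.04 (log2 fold change, edgeR adjusted p = 0.778). Atp5k (chr5:108433244-108434448, minus strand), subunit e of the membrane part, had 59.9, 64.5 and 74.3 CPM in 4OHT organoids, against 71.0, 76.6 and 82.7 CPM in DMSO organoids, and Uqcr10 (chr11:4701973-4704342, minus strand), a small complex III subunit beside cytochrome c1, had 90.9, 105 and 109 CPM in 4OHT organoids, against 106, 119 and 126 CPM in DMSO organoids. For both genes the highest 4OHT library exceeded the lowest DMSO library, and each was lower in 4OHT organoids within every pair. Their blocked edgeR adjusted p-values were 0.0469 and 0.0405, against 0.362 and 0.360 without the block.

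Complex I takes electrons from NADH through an FMN and a chain of iron-sulphur clusters in its hydrophilic arm and pumps protons in its membrane arm. None of its 36 members was called with or without the block, and all 36 had negative log2 fold changes. The groups did not overlap for 12, where 10.1% of all tested genes were separate with lower values in 4OHT organoids. The median was -0.16 for the 7 core subunits and -0.16 for the 29 accessory ones, and the whole set ran from -0.26 to -0.07. The smallest p-value belonged to Ndufa12, an accessory subunit of the hydrophilic arm, with 52.5, 55.8 and 55.7 CPM in 4OHT organoids, against 60.4, 62.5 and 64.0 CPM in DMSO organoids. All 3 4OHT libraries lay below all 3 DMSO libraries, yet the gene did not pass (log2 fold change -0.19, SE 0.0548, adjusted p = 0.172, edgeR). Ndufs3, a core subunit of the ubiquinone-binding module, had 72.5, 72.4 and 72.6 CPM in 4OHT organoids, against 78.2, 79.0 and 86.0 CPM in DMSO organoids, without overlap and with an edgeR adjusted p of 0.247. Ndufab1, the mitochondrial acyl carrier protein that sits in both arms, had 84.3, 91.3 and 93.9 CPM in 4OHT organoids, against 97.7, 98.5 and 108 CPM in DMSO organoids (edgeR adjusted p = 0.288), again without overlap.

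The largest negative fold change of complex I was that of Ndufa1, a small single-helix subunit of the membrane arm, which had 22.7, 24.2 and 26.7 CPM in 4OHT organoids, against 26.2, 28.6 and 33.6 CPM in DMSO organoids. Its highest 4OHT library lay above its lowest DMSO library (log2 fold change -0.26, SE 0.111, adjusted p = 0.331, edgeR). Closer to the middle of the set was Ndufv1, the core subunit that binds FMN and accepts the electrons of NADH, which averaged 226 ± 2.07 CPM in 4OHT organoids and 252 ± 18.6 CPM in DMSO organoids (SD, n = 3 each). Its groups did not overlap, with an edgeR adjusted p-value of 0.329. The 2 most abundant transcripts per kb, Ndufb9 and Ndufb8 of the membrane arm, averaged 149 ± 10.9 CPM in 4OHT organoids and 168 ± 19.9 CPM in DMSO organoids (SD, n = 3 each) for Ndufb9 and 127 ± 7.44 CPM in 4OHT organoids and 137 ± 6.86 CPM in DMSO organoids (SD, n = 3 each) for Ndufb8. Ndufa9, which lies near the ubiquinone site, was nearest to 0 at -0.07. Ndufa9, the core subunit Ndufs7 and Ndufv3 of the NADH-oxidising module were each lower in 2 of 3 pairs only.

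Complex II links the citric acid cycle to the chain by oxidising succinate. Its 4 genes were all below 0, with a median of -0.18 and no call with or without the block. Sdhb, the iron-sulphur subunit, had 102, 100.4 and 113 CPM in 4OHT organoids, against 114, 118 and 149 CPM in DMSO organoids. The groups did not overlap, with DMSO replicate 3 well above the rest (log2 fold change -0.27, SE 0.111, adjusted p = 0.314, edgeR; -0.27 became -0.15 without that library). Sdha, the FAD-binding subunit that oxidises succinate, had 453, 426 and 446 CPM in 4OHT organoids, against 461, 474 and 549 CPM in DMSO organoids. The membrane anchors Sdhc and Sdhd had 171, 171 and 179 CPM in 4OHT organoids, against 185, 179 and 233 CPM in DMSO organoids for Sdhc and 215, 217 and 234 CPM in 4OHT organoids, against 228, 232 and 281 CPM in DMSO organoids for Sdhd. In each of these 3 genes DMSO replicate 3 was the highest library, and the edgeR adjusted p-values were 0.408, 0.438 and 0.492 for Sdha, Sdhc and Sdhd.

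Complex III passes electrons from ubiquinol to cytochrome c. All 9 of its nuclear genes were lower in 4OHT organoids in every pair, as were 24.6% of all tested genes. Their median log2 fold change was -0.18. The groups did not overlap for 5, where 10.1% of all tested genes were separate with lower values in 4OHT organoids. Besides Uqcrq and Uqcr10, called with the block, Uqcrc2, core protein 2, had 294, 295 and 314 CPM in 4OHT organoids, against 322, 328 and 379 CPM in DMSO organoids (edgeR adjusted p = 0.329). Cyc1, cytochrome c1, which hands the electron to cytochrome c and was the most abundant of the 9 per kb, had 415, 415 and 422 CPM in 4OHT organoids, against 452, 444 and 498 CPM in DMSO organoids. Its 4OHT values lay within a few CPM of each other and below all DMSO values (log2 fold change -0.15, SE 0.0652, adjusted p = 0.335, edgeR). Uqcrh, the hinge protein, had 124, 136 and 149 CPM in 4OHT organoids, against 146, 149.7 and 181 CPM in DMSO organoids, with 1 4OHT library inside the DMSO range. The Rieske iron-sulphur protein Uqcrfs1 averaged 183 ± 7.26 CPM in 4OHT organoids and 205 ± 22.3 CPM in DMSO organoids (SD, n = 3 each), and Uqcrb, a small subunit of the ubiquinone site, was nearest to 0 at -0.10.

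Complex IV, cytochrome c oxidase, reduces oxygen; its catalytic core is made in the mitochondrion and the nuclear subunits surround it. All 13 tested members were below 0, with a median log2 fold change of -0.18. The groups did not overlap for 4, where 10.1% of all tested genes were separate with lower values in 4OHT organoids. Behind Cox7c came Cox5b, the zinc-binding subunit, with 131, 139.6 and 141 CPM in 4OHT organoids, against 146, 151 and 172 CPM in DMSO organoids, and Cox6c, with 169, 182 and 195 CPM in 4OHT organoids, against 195, 203 and 235 CPM in DMSO organoids. Both had groups that did not overlap and adjusted p-values of 0.319 and 0.329 in edgeR; with the block they reached 0.0876 and 0.0505. Cox4i1, the ubiquitous isoform of subunit 4, had 339.6, 352 and 365 CPM in 4OHT organoids, against 373, 378 and 451 CPM in DMSO organoids, and Cox8a had 313, 329 and 348 CPM in 4OHT organoids, against 340.4, 352 and 425 CPM in DMSO organoids. DMSO replicate 3 stood highest for both, and the groups were separate for Cox4i1 and overlapping for Cox8a.

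Complex V makes ATP. Its 15 genes were all below 0. The groups did not overlap for 6, where 10.1% of all tested genes were separate with lower values in 4OHT organoids. The 5 subunits of the F1 head had a median log2 fold change of -0.11 and the 10 of the membrane part and peripheral stalk one of -0.20; that difference was not tested. Atp5b had 1812, 1822 and 1889 CPM in 4OHT organoids, against 1888, 1927 and 2144 CPM in DMSO organoids, and 1 4OHT library matched the lowest DMSO library within 1 CPM (log2 fold change -0.11, SE 0.0771, adjusted p = 0.560, edgeR). Atp5j2, subunit f of the membrane part, had 107, 120.0 and 124 CPM in 4OHT organoids, against 126, 132 and 152 CPM in DMSO organoids. Its groups did not overlap, and it missed the threshold without the block (adjusted p = 0.323, edgeR) and with it (adjusted p = 0.0518). Atp5o, which confers oligomycin sensitivity at the top of the peripheral stalk, averaged 199 ± 10.6 CPM in 4OHT organoids and 231 ± 25.7 CPM in DMSO organoids (SD, n = 3 each). Of the 2 members that are not subunits, Atp5sl, linked to complex I assembly, averaged 21.7 ± 1.03 CPM in 4OHT organoids and 24.6 ± 2.19 CPM in DMSO organoids (SD, n = 3 each), and Atp5s, coupling factor B, was nearest to 0 of all members with 5.84, 6.27 and 6.97 CPM in 4OHT organoids, against 5.84, 6.34 and 7.28 CPM in DMSO organoids.

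Several subunits exist as paired isoforms known to differ between tissues. Cox7a2, the liver-type form of subunit 7a, had 100.2, 114 and 120.4 CPM in 4OHT organoids, against 116, 125 and 139 CPM in DMSO organoids, while Cox7a1, the form of heart and skeletal muscle, had 6.16, 4.72 and 6.90 CPM in 4OHT organoids, against 6.75, 6.26 and 16.1 CPM in DMSO organoids. Per kb, Cox7a1 made up 8.20% ± 1.51 of the pair in 4OHT organoids and 11.0% ± 4.64 in DMSO organoids (SD, n = 3 each). Its log2 fold change of -0.71 was the most negative of any member, did not pass (SE 0.378, adjusted p = 0.439, edgeR), and rested on DMSO replicate 3: without that library it was -0.14. Cox6b2, the testis form of subunit 6b, had only 3, 2 and 2 counts in 4OHT organoids and 3, 7 and 2 counts in DMSO organoids, at which depth no difference could be detected, while Cox6b1, the ubiquitous form, had 198, 215 and 234 CPM in 4OHT organoids, against 224, 229.8 and 261 CPM in DMSO organoids. Cox6a1, the liver-type form of subunit 6a, had 195, 203 and 215 CPM in 4OHT organoids, against 213, 221 and 252 CPM in DMSO organoids. The forms Cox4i2, Cox6a2, Cox7b2, Cox8b, Cox8c and Ndufa4l2 had no row under these names, so no level can be given for them.

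Subunit c of the rotor ring is encoded by 3 genes whose mature proteins are the same. Atp5g3 had 376, 373 and 408 CPM in 4OHT organoids, against 414, 422 and 487 CPM in DMSO organoids, Atp5g1 134, 141 and 142 CPM in 4OHT organoids, against 146, 153 and 172 CPM in DMSO organoids and Atp5g2 126, 138 and 123 CPM in 4OHT organoids, against 125, 136 and 145 CPM in DMSO organoids. The groups were separate for Atp5g1 and Atp5g3 and overlapping for Atp5g2. Per kb of the principal transcripts Atp5g3 gave between 70.3% and 74.0% of the subunit c transcripts in 4OHT libraries and between 72.8% and 74.2% in DMSO libraries; the share depends on which transcript sets the length. The log2 fold changes were -0.19 for Atp5g3, -0.18 for Atp5g1 and -0.07 for Atp5g2, with edgeR adjusted p-values of 0.335, 0.322 and 0.728. Atp5g2 was lower in 4OHT organoids in 1 of 3 pairs only, and without replicate 3 of both groups its log2 fold change was 0.01. Among the other named forms, Cox7b had 107, 126 and 138 CPM in 4OHT organoids, against 133, 136 and 169.8 CPM in DMSO organoids, Cox7a2l had 112, 121 and 117 CPM in 4OHT organoids, against 116, 122 and 139.8 CPM in DMSO organoids and Ndufa4 had 139, 151 and 160.5 CPM in 4OHT organoids, against 158, 162 and 184 CPM in DMSO organoids. For these 3 genes 1 or 2 of the 4OHT libraries lay inside the DMSO range, and the edgeR adjusted p-values were 0.422, 0.554 and 0.422.

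**Figure D4:**
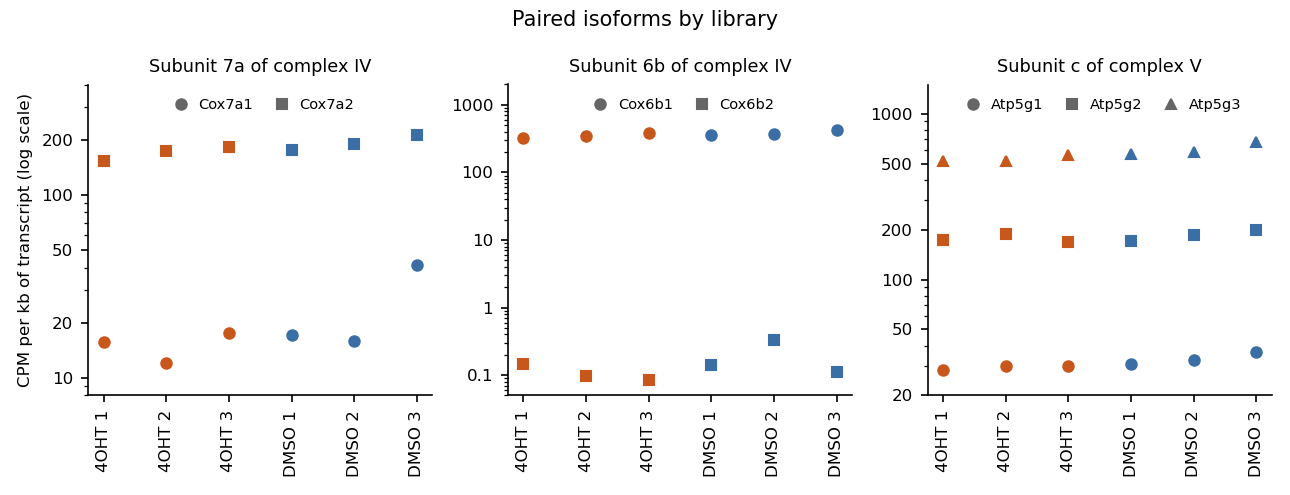
Level of paired isoforms in each library, in CPM per kb of transcript on log axes that differ between panels, with 4OHT libraries in orange and DMSO libraries in blue. Cox7a1 is highest in DMSO replicate 3, where it had 16.1 CPM, Cox6b2 stays below 1 CPM per kb, and Atp5g3 lies above Atp5g2 and Atp5g1 in every library.

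The promoters of respiratory genes are known for sites of NRF1 and of ETS-family factors such as GABP, and the windows below were read because the members lay on 1 side of 0 together. RefSeq gives a promoter window on GRCm38.p6 for 65 of the 80 members, in 70 windows. Members were matched by Ensembl identifier or, failing that, by symbol. The 250 bases before each start were searched on both strands. The NRF1 motif (GCGCA, any base, then GCGC) was found in 14 of 70 member windows, in 7.73% of windows of tested genes and in 3.74% of all windows in the RefSeq table. The ETS motif CCGGAAG stood in 17.1% of member windows, 13.0% of windows of tested genes and 6.91% of all windows. Median GC content was 56.2%, 59.6% and 52.4% in the same 3 sets. The YY1 motif (AA, any base, then ATGGCGG) occurred in 1 member window, the ERR motif TCAAGGTCA in 1, and the HNF4 motif CAAAGTNCA in 0, against 1.03% of windows of tested genes for the last, which says only that these letters were not in these windows. None of the 5 motifs contains another. Members with an NRF1 match had a median log2 fold change of -0.16 (13 genes), and tested members without one -0.16 (51 genes).

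Windows are shown 5′ to 3′ on the strand of the gene, cut before the outermost annotated start, with NRF1 matches in capitals. The first 3 belong to genes called lower with the block and hold no NRF1 match in the bases shown, the 1 match of Atp5k lying past them. Uqcrq, also called, had no window, and Atp5j, called too, had 0 NRF1 matches and is not shown. Uqcr10 lies at chr11:4704345-4704594, Cox7c at chr13:86046905-86047045 and Atp5k at chr5:108434449-108434649, each on the minus strand. The other 4 were chosen for complexes I, II, IV and V by the number of NRF1 matches left after that cut, with ties taken in order of name, and their genes were not called; before the cut, Ndufb4 of complex I had 3 matches, against 1 for Ndufa11, and Sdha also had 3. They lie as follows: Ndufa11 at chr17:56717512-56717761 on the plus strand, and Sdha at chr13:74350281-74350490, Cox6a1 at chr5:115348982-115349208 and Atp5h at chr11:115419963-115420169 on the minus strand.
Uqcr10: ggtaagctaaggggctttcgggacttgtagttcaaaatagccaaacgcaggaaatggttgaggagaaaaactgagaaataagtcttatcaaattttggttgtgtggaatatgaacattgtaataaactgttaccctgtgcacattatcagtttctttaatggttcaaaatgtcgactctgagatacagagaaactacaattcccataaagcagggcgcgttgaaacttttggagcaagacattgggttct
Cox7c: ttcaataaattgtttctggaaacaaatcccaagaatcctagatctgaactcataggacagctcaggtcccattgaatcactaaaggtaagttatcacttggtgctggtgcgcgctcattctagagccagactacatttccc
Atp5k: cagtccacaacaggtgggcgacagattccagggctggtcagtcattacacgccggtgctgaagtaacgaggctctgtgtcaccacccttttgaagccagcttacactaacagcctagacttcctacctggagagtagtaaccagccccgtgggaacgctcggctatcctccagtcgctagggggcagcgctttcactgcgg
Ndufa11: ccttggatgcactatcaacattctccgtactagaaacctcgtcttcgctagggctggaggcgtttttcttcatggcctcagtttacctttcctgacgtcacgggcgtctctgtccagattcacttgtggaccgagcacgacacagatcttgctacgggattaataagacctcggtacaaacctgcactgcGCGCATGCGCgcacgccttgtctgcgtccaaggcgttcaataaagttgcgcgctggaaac
Sdha: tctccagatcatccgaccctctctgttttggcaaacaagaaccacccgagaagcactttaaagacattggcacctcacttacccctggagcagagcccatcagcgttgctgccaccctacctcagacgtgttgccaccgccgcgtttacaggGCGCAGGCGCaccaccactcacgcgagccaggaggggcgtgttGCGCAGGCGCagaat
Cox6a1: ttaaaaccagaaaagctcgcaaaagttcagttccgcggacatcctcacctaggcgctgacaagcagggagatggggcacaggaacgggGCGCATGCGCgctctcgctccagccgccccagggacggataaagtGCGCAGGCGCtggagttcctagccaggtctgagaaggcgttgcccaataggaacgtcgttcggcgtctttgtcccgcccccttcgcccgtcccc
Atp5h: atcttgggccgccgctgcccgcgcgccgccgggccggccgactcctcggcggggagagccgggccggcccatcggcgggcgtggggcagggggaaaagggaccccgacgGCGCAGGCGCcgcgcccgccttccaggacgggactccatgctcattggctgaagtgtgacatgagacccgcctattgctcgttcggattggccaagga
A match is a run of letters and not a site of binding. Of the 4 genes with matches shown, Ndufa11 was at -0.21, Sdha at -0.16, Cox6a1 at -0.17 and Atp5h at -0.15 on the log2 scale. Uqcr10, Cox7c and Atp5k were at -0.21, -0.27 and -0.21. These last 3 were shown because they were called lower and the 4 were taken from genes not called, so the values cannot be compared by match.

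Other genes of the pathway were read from lists of gene names. The mitochondrial genome encodes 13 further subunits, and their transcripts summed to 16016, 18565 and 16500.0 CPM in 4OHT organoids, against 21665, 17625 and 18004 CPM in DMSO organoids. The groups overlapped, and DMSO replicate 1, not replicate 3, was the highest library. Of the 13, 0 were called higher and 0 lower, with or without the block, 9 were below 0 and the median log2 fold change was -0.15. The 7 that stood at 37.0 CPM or higher in every library were all below 0. The other 6, mt-Nd3, mt-Nd4l, mt-Co2, mt-Co3, mt-Atp6 and mt-Atp8, lay between 0.250 and 6.44 CPM in every library, and the 4 genes above 0 were among them. Near-identical copies elsewhere in the genome were searched for the nuclear members only. Whether these 6 were low because of how reads were counted was not tested, and the summed level carries the same limit. The smallest p-value was that of mt-Nd2, a core subunit of complex I, with 1211, 1373 and 1356 CPM in 4OHT organoids, against 1674, 1439 and 1477 CPM in DMSO organoids (edgeR adjusted p = 0.316). mt-Nd5 and mt-Nd4, also of complex I, had log2 fold changes of -0.20 and -0.18. Replicate 3 did not stand above replicates 1 and 2 for these transcripts: the median difference was -0.03 in 4OHT organoids and -0.04 in DMSO organoids.

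Assembly factors build the complexes without staying in them. Of 46 tested, 0 were called without the block, 42 were below 0 and the median log2 fold change was -0.10, nearer to 0 than that of the subunits. Without DMSO replicate 3 their median was -0.08, with 38 of 46 below 0, where that of the subunits was -0.10. The difference between these sets was not tested. With the block 3 assembly factors were called lower and 0 higher, where 3.00% of all tested genes were called lower. Ttc19, a complex III factor, had 13.9, 14.3 and 14.2 CPM in 4OHT organoids, against 17.4, 17.7 and 19.7 CPM in DMSO organoids (blocked edgeR adjusted p = 0.0426, 0.0920 without the block). Tmem186, of complex I assembly, had 27.9, 26.5 and 28.8 CPM in 4OHT organoids, against 32.4, 32.2 and 38.3 CPM in DMSO organoids (blocked edgeR adjusted p = 0.0448), and Cox19, of complex IV assembly, had 39.4, 40.6 and 45.7 CPM in 4OHT organoids, against 49.0, 48.3 and 53.1 CPM in DMSO organoids (blocked edgeR adjusted p = 0.0369). In each of these 3 genes the 4OHT libraries lay below the DMSO libraries. Ndufaf6 and Ndufaf3, both of complex I assembly, were not called, at log2 fold changes of -0.35 and -0.28 (edgeR adjusted p = 0.113 and 0.145).

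Transcriptional regulators of respiratory genes were not called: 0 of 15 passed with or without the block, 10 were below 0, and the median log2 fold change was -0.12, or -0.06 without DMSO replicate 3. Ppargc1b, a coactivator of mitochondrial genes, averaged 15.3 ± 0.272 CPM in 4OHT organoids and 18.8 ± 1.97 CPM in DMSO organoids (SD, n = 3 each), without overlap (edgeR adjusted p = 0.201). The nuclear receptor Esrrg had 3.46, 3.06 and 1.86 CPM in 4OHT organoids, against 3.86, 4.30 and 5.20 CPM in DMSO organoids (log2 fold change -0.67, edgeR adjusted p = 0.273), and the mitochondrial RNA polymerase Polrmt had 49.1, 45.4 and 50.2 CPM in 4OHT organoids, against 53.3, 53.0 and 54.5 CPM in DMSO organoids (edgeR adjusted p = 0.295). For both, the highest 4OHT library lay below the lowest DMSO library. Nrf1 itself was at 0.01 on the log2 scale. Of 7 tested carriers and flavoproteins that feed the chain, 0 were called and 6 were below 0; Aifm1, needed for complex I assembly, was at -0.14, Dhodh at -0.14, and Gpd2, the glycerol phosphate dehydrogenase, at 0.16 (edgeR adjusted p = 0.393). The 14 citric acid cycle enzymes were all below 0 with a median of -0.14 and 0 calls without the block. Without DMSO replicate 3 their median was -0.07, and Mdh2 was no longer below 0. With the block 1 was called lower, Sucla2, a subunit of succinyl-CoA synthetase, with 90.3, 87.3 and 99.6 CPM in 4OHT organoids, against 101, 102 and 119.7 CPM in DMSO organoids (blocked edgeR adjusted p = 0.0443). Of all tested genes, 3.00% were called lower with the block. Dld and Idh3g were at -0.15 and -0.18 (edgeR adjusted p = 0.298 and 0.316).

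Markers of epithelial cell states also differed between these libraries. With the block, 3.00% of all tested genes were called lower and 3.99% higher. Without the block, the shares were 0.206% and 0.701%. The 10 enterocyte markers summed to 3525, 2774 and 4316 CPM in 4OHT organoids, against 4146, 3803 and 7330.2 CPM in DMSO organoids, highest in DMSO replicate 3 as were the respiratory genes. All 10 were below 0, with a median log2 fold change of -0.53; 0 were called without the block, and Fabp2 and Apoa1, a lipid-binding protein and an apolipoprotein of enterocytes, were called lower with it. Without DMSO replicate 3 the median was -0.12, and Apoa4 and Slc5a1 were no longer below 0. Apoa1 had 440.0, 326 and 503 CPM in 4OHT organoids, against 705, 560.0 and 894 CPM in DMSO organoids, without overlap (blocked edgeR adjusted p = 0.00581, 0.152 without the block). The median enterocyte marker stood 0.35 higher in replicate 3 than in replicates 1 and 2 in 4OHT organoids and 0.87 higher in DMSO organoids. Their part in the level of the respiratory genes was not tested. Goblet cell markers went the other way: all 4 were above 0, with a median of 0.78, and all 4 were called higher with the block and 0 without it. Without DMSO replicate 3 their median was 1.30. The 5 stem cell markers were below 0 with a median of -0.34 and 1, Axin2, called lower with the block, and the 6 cell cycle markers had a median of -0.01 and 0 calls. Among Paneth cell markers Lyz1, the Paneth cell lysozyme, which can share reads with its near-identical copy Lyz2, was called lower without the block (log2 fold change -0.78, SE 0.105, adjusted p = 0.0318, edgeR), and the median of the 4 was -0.05. The 3 enteroendocrine markers had a median of 0.21, with Chga called higher with the block, the 3 tuft cell markers one of 0.07 with 0 calls, and the immune markers that had a row summed to between 2.73 and 5.34 CPM. Of the 8 defining epithelial markers, Epcam was called lower with the block and 0 were called without it.

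**Figure D5:**
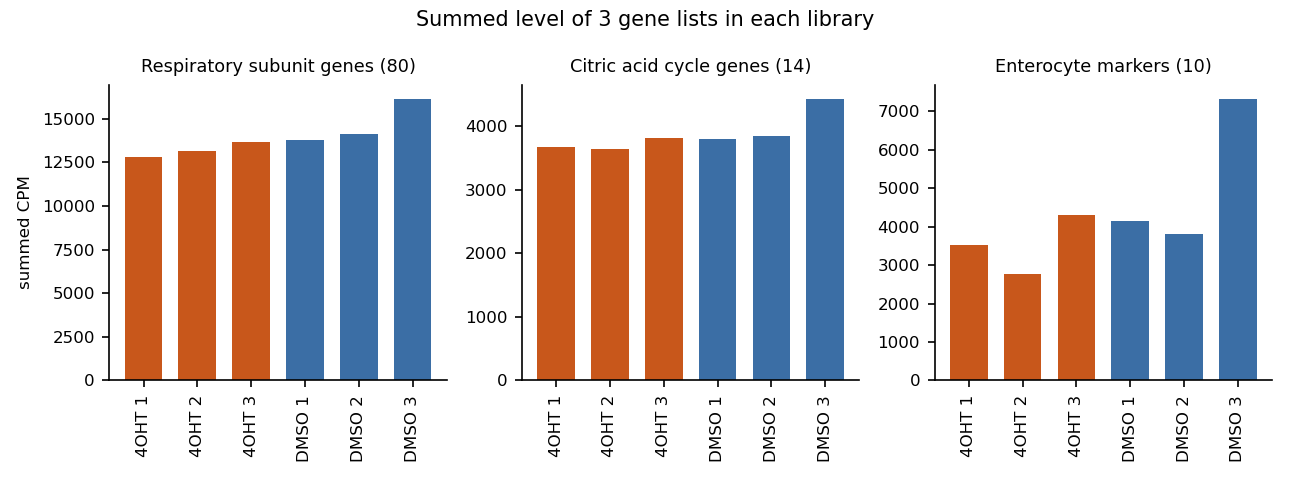
Summed CPM in each library of the 80 respiratory subunit genes, 14 citric acid cycle genes and 10 enterocyte markers, as bars from 0 on linear axes that differ between panels, with 4OHT libraries in orange left of DMSO libraries in blue. DMSO replicate 3 is the tallest bar in all 3 panels, at 16162, 4437 and 7330 CPM.

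Features shared by the members bear on how they were counted. Their principal transcripts are short, with a median of 875 bases against 2725 over all tested genes. Other tested genes under 1000 bases, 1706 in all, had a median log2 fold change of -0.03, with 55.7% below 0. Across the 79 tested members, which share libraries and depth, Spearman's rho of the log2 fold change was 0.02 with the mean level and 0.22 with transcript length. A near-identical copy elsewhere in the genome, at 95% identity or more over at least 100 bases of coding sequence, exists for 24 members, and their median log2 fold change was -0.18, beside -0.16 for those without. The largest share was that of Atp5l, subunit g of the ATP synthase, with 9 copies, of which the 5 in the table held 4.39% as many counts as the gene. For members whose exons overlap another gene's, the median was -0.16, and for the rest it was -0.17. In the authors' deposited table the log2 fold change was negative for 80 of 80 members, with a median of -0.17, and negative for 50.5% of all genes. The smallest adjusted p-value of a member in the authors' deposited table was 0.18 by edgeR and 0.43 by DESeq.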

How the data were processed

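RNA from organoids was sequenced as 6 directional poly(A) libraries, per the labels' protocols. The authors used bcl2fastq 1.8.4, STAR 2.4.0f1 and build GRCm38, per the submitters' processing notes. The counting program and its strand setting are not given in the sources used here. The deposited table holds raw counts per gene, at least 10 in total over the libraries, beside the authors' log2 fold changes and the authors' adjusted p-values. Another 6 columns of per-sample values were not used.

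Counts were tested with edgeR 4.0.16 (R 4.3.3) by the quasi-likelihood test, 4OHT over DMSO, with TMM scaling and no block. Low genes were removed with filterByExpr, which left 14544 of 18448 genes, and calls needed an adjusted p under 0.05 over all of them. The SE of a fold change was derived from its F statistic, and log2 CPM used a prior count of 0.5. An exact permutation test of 3 against 3 libraries cannot go below p = 0.1, so none was used. Alternatives were DESeq2 1.42.0, limma-voom 3.58.1, other scalings and filters, a replicate block and libraries left out. The unblocked edgeR fit alone was first run on simulated counts, with changes larger than those of the members and no replicate effect. That run does not bear on the alternatives, the blocked calls or shifts as small as those of the members. Depth was 31537100 to 40276242 counts per library, at which only Cox6b2 among the members had too few counts to test.

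The labels number replicates 1 to 3 in both groups without stating a pairing. Deviations from the group means of same-numbered libraries correlated at 0.29, 0.31 and 0.41 over 14544 genes for numbers 1, 2 and 3, each above the 0.1 set as the minimum, so blocked values are given where they change a call. Over the 79 tested members the same correlations were 0.11, 0.65 and 0.41. Among them 4OHT replicate 1 correlated at 0.15 with DMSO replicate 3, and DMSO replicate 1 at 0.28 with 4OHT replicate 2. For number 1 the members thus do not single out the same-numbered library.

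Members and lists were chosen with earlier results of these data known. Full values are given for members called with or without the block, those with the smallest p-values, highest levels or most extreme fold changes of each complex, and isoforms; of other lists, for up to 3 smallest p-values and every call. Lengths and overlaps came from GENCODE M21, copies from BLAST 2.17.0 and promoters from RefSeq GRCm38.p6, cut at 250 bases before the start. The separate values of 1 member are not reported here.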

Additional observations from a re-analysis of the deposited data

How the results depend on the processing

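The median log2 fold change of the members stayed below 0 under every alternative run, at -0.21 to -0.10 when 1 library was left out, lowest without DMSO replicate 1 and nearest to 0 without DMSO replicate 3, and at -0.17 to -0.16 under the replicate block, the other scalings, filters and tools. Members called lower numbered 0 in the unblocked fit, with 1 library left out, and under the other scalings, filters and tools, 5 with the replicate block, 1 without replicate 3 of both groups (Cox7c, adjusted p = 0.0456 in edgeR, where 1.51% of all genes were called lower) and 34 without replicate 3 of both groups with the block; 0 were called higher in any fit. The count of all genes called was 132 in the unblocked fit, 1017 with the block, 56 among genes at 10 CPM or more, 762 in DESeq2, 4 to 340 with 1 library left out, lowest without DMSO replicate 2 and highest without DMSO replicate 3, 601 without replicate 3 of both groups and 2678 without it and with the block. Fits without replicate 1 or replicate 2 of both groups, with the block, were chosen after seeing the data and called 638 and 44 genes. Every blocked fit that left out a replicate number kept 2 pairs only. Values of the other gene lists without DMSO replicate 3 were also chosen after seeing the data; besides those given above, the median became 0.36 for enteroendocrine, 0.31 for tuft cell and -0.08 for cell cycle markers. Atp5g2 changed sign to 0.0097 without replicate 3 of both groups, with or without the block. On library totals alone the median excess of DMSO replicate 3 was 0.16. The Cox6b2 share of its pair in 4OHT organoids was 0.0194% with the union of exons as length. The Atp5g1 share of Atp5g1 and Atp5g3 was 6.20% in 4OHT and 6.12% in DMSO organoids with the longest transcripts and 13.8% and 13.7% with the union of exons, and the Atp5g2 share of Atp5g2 and Atp5g3 was 27.7% and 26.0%, and 30.4% and 28.5%. The cause of these shifts was not tested, apart from the lengths, which enter the shares directly. With all libraries kept, the block changed no call of a member other than the 5. Depth limits 1 member, Cox6b2, which had at most 7 counts in a library.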
